A study of Mus musculus with 31 samples.

Results

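The genes described here are 7 ligands of the epidermal growth factor (EGF) family, Egf, Areg, Ereg, Btc, Hbegf, Tgfa and Nrg1, and 3 receptors of the ErbB family, Egfr, Erbb2 and Erbb3. They were taken by symbol as the rows that carry these names, which gave 10 of the 38283 genes in the tables.

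ErbB receptors are transmembrane tyrosine kinases that signal as pairs after a ligand has bound. EGFR is the receptor of EGF, amphiregulin (Areg), epiregulin (Ereg), betacellulin (Btc), heparin-binding EGF-like growth factor (Hbegf) and transforming growth factor alpha (Tgfa), ERBB3 is a receptor of neuregulins such as Nrg1 and has little kinase activity of its own, and ERBB2 has no known ligand and serves as the partner of the others. In the pancreas, EGFR signalling is known for its part in the growth of islets and in the conversion of acinar cells to duct-like cells.

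The pancreas of C57BL/6 mice was taken at postnatal day 2, its cells were sorted by fluorescence, and their RNA was sequenced, with YFP-positive cells taken as mesenchymal and YFP-negative cells as non-mesenchymal. The study compares mice in which Igf2, an imprinted growth factor, is deleted or overexpressed in the mesenchyme with littermate controls. In the H19DMD model, the controls were H19DMD+/+; Nkx3.2+/Cre and the mutants H19DMDfl/+; Nkx3.2+/Cre, with 3 control and 4 mutant libraries of each cell fraction. In the Igf2 model, the controls were Igf2+/+; Nkx3.2Cre/+ and the mutants Igf2+/fl; Nkx3.2Cre/+, of which 4 and 3 non-mesenchymal libraries had values. Every animal thus carried Cre driven by Nkx3.2, a gene of the gut and pancreatic mesenchyme, and the genotypes name no YFP reporter allele. H19DMD is the imprinting control region that H19 and Igf2 share. Of the 31 samples of the series, 21 had values, and the other 10, among them all mesenchymal samples of the Igf2 model, were not analysed here. The labels do not say whether the libraries of a group came from separate animals, so p-values measure the spread between these libraries, which may be technical.

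Values are FPKM, fragments scaled by transcript length and by the mapped fragments of the library. Levels can thus be compared roughly between genes, with the limits for Erbb2 and Nrg1 given below. The top 3 genes of a library held 38.2 to 58.2% of its FPKM in the H19DMD model and 60.5 to 82.5% in the Igf2 model. Each model has its own table, normalised separately, so the models are set side by side and tests were made within a table. The absolute depth is unknown. Relative depth, read from the steps between low values, varied 2.60-fold among libraries of the Igf2 table and 2.09-fold among those of the H19DMD table, and 17476 to 20918 genes had a value above 0 per library. Igf2 in the H19DMD model's mesenchyme was 3849 ± 189 FPKM in controls (SD, n = 3) and 7039.7 ± 799.8 in mutants (n = 4), and H19 was 2446 ± 8.11 and 700.3 ± 123 FPKM. The sort was checked against marker lists. The 10 mesenchymal markers summed to 5533 to 7118 FPKM in the 7 mesenchymal libraries and to 161 to 448 FPKM in the 14 non-mesenchymal ones. Nkx3-2 itself did not separate the fractions, at 0 to 1.99 FPKM in mesenchymal and 0 to 2.24 in non-mesenchymal libraries, although it was listed at 0 in every non-mesenchymal library of the H19DMD model. The summed markers of acinar cells were 28606 to 101670 FPKM in non-mesenchymal and 555 to 1753 in mesenchymal libraries, and those of endocrine cells 6002 to 29152 and 41.2 to 225 FPKM. Ductal markers summed to 973 to 1893 and 24.2 to 86.3 FPKM, with Epcam at 107 to 222 and 0.136 to 1.52 FPKM. The non-mesenchymal fraction was therefore a mixture, and it also held markers of leukocytes (224 to 798 FPKM), of red blood cells (114 to 3452), of Schwann cells (27.9 to 106) and of neurons (7.31 to 107). In the mesenchymal fraction those sums were 15.4 to 67.1, 11.7 to 23.2, 4.74 to 12.6 and 2.57 to 9.86 FPKM. Mesothelial markers summed to 154 to 541 FPKM in non-mesenchymal and 90.7 to 303 in mesenchymal libraries. Of these, Krt18 was at 92.4 to 303 FPKM in non-mesenchymal and 0.882 to 6.08 in mesenchymal libraries. Krt8 was at 53.2 to 230 and 1.41 to 8.40 FPKM. Krt18 and Krt8 thus made up most of the non-mesenchymal sums and little of the mesenchymal ones. The rest of the list summed to more in the mesenchymal libraries. Endothelial markers summed to 13 to 112 FPKM in non-mesenchymal and 74.3 to 127 in mesenchymal libraries. In the H19DMD model, where the fractions are compared, they summed to 17.0 to 42.5 FPKM in non-mesenchymal controls and 19.2 to 28.3 in mutants. These all lay below every mesenchymal library. The part of endothelial cells in the differences between fractions was not tested.

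All 10 genes are protein-coding in the GENCODE M21 annotation of GRCm38. Ereg (chromosome 5, 91074622 to 91093646, plus strand), Areg (91139599 to 91148432, plus strand) and Btc (91357261 to 91402994, minus strand) lie with Epgn in a cluster of 375.5 kb. Tgfa lies on chromosome 6 (86195223 to 86275719, plus), Egf on chromosome 3 (129677565 to 129755316, minus) and Nrg1 on chromosome 8 (31814551 to 32884029, minus). Egfr spans 16752203 to 16918158 on the plus strand of chromosome 11, Erbb2 spans 98412470 to 98437716 on the plus strand of the same chromosome, and Erbb3 spans 128567523 to 128589652 on the minus strand of chromosome 10. The use of strand in the counting is not given in the sources used here, so reads of antisense neighbours cannot be told apart from those of Egf, Ereg, Tgfa and Nrg1, whose exons overlap such genes. The locus that the tables give for Erbb2 runs to 98439046 and so covers all of Mien1 on the opposite strand. Mien1 was at group means of 29.2 to 49.1 FPKM in non-mesenchymal and 9.29 to 14.7 FPKM in mesenchymal cells, so Erbb2 values are uncertain. For Nrg1 the tables' locus covers 9.37% of the annotated gene, and 15 of its 18 annotated transcripts start upstream of it. Nrg1 values therefore describe its 3' portion.

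The 250 bases before the RefSeq start are shown for a receptor and 2 ligands whose level differed between the cell fractions (Egfr, Areg, Tgfa) and for the receptor whose ranges overlapped between them (Erbb2). The sequences are from RefSeq on GRCm38.p6, on the gene's strand and 5′ to 3′, for Egfr chr11:16751953-16752202 (plus), Areg chr5:91139349-91139598 (plus), Tgfa chr6:86194972-86195221 (plus) and Erbb2 chr11:98412234-98412483 (plus). RefSeq entries matched 6 of the 10 genes, the others being Egf and Btc. Both strands were searched for the TATA box, as the letters TATAAA, and for the GC box, as the letters GGGCGG. The cAMP response element was searched as the letters TGACGTCA and the AP-1 site as the letters TGANTCA. The CCAAT box was searched by the letters of its name, and capitals mark what was found.
Egfr: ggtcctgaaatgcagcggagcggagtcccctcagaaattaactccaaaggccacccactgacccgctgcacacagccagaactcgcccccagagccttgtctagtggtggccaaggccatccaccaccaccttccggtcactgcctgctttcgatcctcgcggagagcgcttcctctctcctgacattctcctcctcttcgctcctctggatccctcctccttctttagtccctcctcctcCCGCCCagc
Areg: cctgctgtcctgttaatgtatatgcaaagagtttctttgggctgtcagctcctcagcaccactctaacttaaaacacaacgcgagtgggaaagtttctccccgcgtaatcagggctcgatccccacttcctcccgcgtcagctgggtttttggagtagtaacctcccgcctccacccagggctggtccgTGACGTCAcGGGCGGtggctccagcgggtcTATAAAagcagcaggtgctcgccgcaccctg
Tgfa: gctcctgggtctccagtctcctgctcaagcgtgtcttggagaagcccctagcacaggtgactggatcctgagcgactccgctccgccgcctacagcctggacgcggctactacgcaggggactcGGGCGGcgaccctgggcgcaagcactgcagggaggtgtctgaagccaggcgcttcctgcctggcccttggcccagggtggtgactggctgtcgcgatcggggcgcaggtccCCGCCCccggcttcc
Erbb2: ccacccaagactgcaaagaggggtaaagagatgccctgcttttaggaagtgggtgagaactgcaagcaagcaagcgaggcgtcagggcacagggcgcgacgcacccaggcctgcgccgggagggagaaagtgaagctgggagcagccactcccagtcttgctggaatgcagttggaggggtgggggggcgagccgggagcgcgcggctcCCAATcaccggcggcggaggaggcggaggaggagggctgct
The Areg window held a TATA box at 31 to 26 bases before the start, a GC box at 52 to 47 and a cAMP response element at 61 to 54, none of which overlap. Tgfa held GC boxes at 126 to 121 and, on the reverse strand, at 15 to 10 bases before the start. Egfr held a reverse-strand GC box at 9 to 4, and Erbb2 a CCAAT box at 41 to 37 bases before the start. Of all 32851 promoter entries, a window of the same length held a TATA box in 12.4%, a GC box in 32.7%, the cAMP response element in 1.55%, an AP-1 site in 6.75% and CCAAT in 33.9%. The windows of Egfr, Areg, Tgfa and Erbb2 held 11, 15, 19 and 16 CpG, against a median of 6 over all entries, and were 60.8, 57.2, 69.2 and 66.0% G and C against a median of 52.4%. Positions count from the RefSeq start, which for Erbb2 lies inside the GENCODE gene given above. These are matches of letters only. No such letters were found in the windows of Egf and Btc.

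Mesenchymal and non-mesenchymal cells differed in which ErbB receptors and which ligands they carried. In the H19DMD controls, Egfr was 15.3-fold higher in mesenchymal cells and Erbb3 was 15.1-fold higher in non-mesenchymal cells, as ratios of mean FPKM. Of the EGFR ligands, Areg, Hbegf and Tgfa were lower in mesenchymal cells, whereas the neuregulin Nrg1 was higher. The Nrg1 call was lost when single libraries were left out, and the Tgfa call in a single such fit. Both calls were also lost with the replicate number fitted as a block. Erbb2 did not pass the test. In bulk RNA, a change in the share of a cell type and a change in RNA per cell cannot be told apart.

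Differences were tested with limma on log2(FPKM + 1) over all genes averaging 1 FPKM or more in the libraries compared, with p-values adjusted over all of them by the Benjamini-Hochberg method and a threshold of 0.05. A log2 difference on this scale understates the change of low genes. In the controls, 6 members passed, 2 higher and 4 lower in mesenchymal cells, where 22.6% of all 16732 genes tested did (12.4% higher and 10.3% lower). Of the 10 members, 8 were tested, and Egf and Ereg fell below the filter. Areg, Erbb3, Tgfa and Btc reached the filter through the non-mesenchymal libraries and Nrg1 through the mesenchymal ones, so the count over the members tested is a description. The ranges of the fractions did not overlap for 8 of the 10 members, 2 above and 6 below, against 39.9% of the genes tested (22.4% above and 17.4% below). With 3 against 3 libraries the exact two-sided permutation test cannot go below 0.1, so it cannot reach 0.05.

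Among the ligands, Hbegf (chromosome 18, 36504927 to 36515805, minus strand) was the most abundant. It encodes a membrane-anchored precursor that is shed to release the active factor. In mesenchymal cells of the H19DMD model, Hbegf was at 2.82, 3.26 and 3.93 FPKM in controls and at 2.93, 1.79, 1.89 and 2.99 in mutants. In non-mesenchymal cells of that model it was at 10.2, 16.7 and 15 FPKM in controls and at 15.9, 30.4, 27.0 and 22.8 in mutants. Every non-mesenchymal library thus lay above every mesenchymal one. The log2 difference of mesenchymal from non-mesenchymal controls was -1.77 ± 0.25 (SE; limma adjusted p = 0.00423), a 4.18-fold lower mean. In the non-mesenchymal libraries of the Igf2 model, Hbegf was at 23.4, 16.1, 36.6 and 28.9 FPKM in controls and 11, 16.5 and 21.2 in mutants. It was the highest of the 7 ligands in all 14 non-mesenchymal libraries and in 6 of the 7 mesenchymal ones.

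Areg encodes amphiregulin, an EGFR ligand of epithelia. It was listed at 0 in 6 of the 7 mesenchymal libraries, all 3 controls among them, and at 0.769 FPKM in mutant 2. A listed 0 in these files can be a failed estimate, so no fold is given against the controls. In non-mesenchymal cells Areg was at 6.88, 10.4 and 6.07 FPKM in the H19DMD controls and at 8.15, 8.88, 8.65 and 7.19 in the mutants. The ranges of the fractions did not overlap in either genotype. The fitted log2 difference in controls was -3.10 ± 0.28 (limma adjusted p = 0.000831), but its size is set by the pseudocount of 1 and became -6.26 with 0.1. The Igf2 controls spread widely, at 3.65, 0.916, 10.5 and 14 FPKM, and the Igf2 mutants, at 7.65, 12.9 and 5.80, lay within that range.

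Tgfa encodes transforming growth factor alpha. It was at 1.45, 0.327 and 0.665 FPKM in mesenchymal controls and 1.20, 1.34, 0.0596 and 0.322 in mesenchymal mutants. In the non-mesenchymal libraries it was at 3.72, 5.23 and 5.88 FPKM in H19DMD controls and 5.96, 6.59, 8.13 and 7.70 in mutants. The lowest non-mesenchymal value lay above the highest mesenchymal one. The difference in controls was -1.74 ± 0.33 (limma adjusted p = 0.0128, 6.06-fold lower mean), and it missed the threshold without non-mesenchymal control 2 (adjusted p = 0.0501). It also missed the threshold with the replicate number fitted as a block. In the Igf2 model Tgfa was at 6.18, 6.92, 3.64 and 4.78 FPKM in controls and 5.18, 4.81 and 4.66 in mutants.

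Btc encodes betacellulin, named for its effect on cultured beta cells. Mesenchymal controls held 0.737, 0.771 and 0.0903 FPKM and mesenchymal mutants 0.986, 0.130, 0.215 and 0, against 2.44, 2.57 and 1.66 in non-mesenchymal H19DMD controls and 2.90, 1.45, 4.07 and 2.58 in their mutants. The groups did not overlap between fractions, but the difference of -1.09 ± 0.33 in controls missed the threshold (limma adjusted p = 0.0648). It passed there with a variance that does not depend on the level (0.0376) and over protein-coding genes alone (0.0276). In the Igf2 model Btc was at 1.19, 3.03, 3.52 and 1.38 FPKM in controls and at 1.52, 1.05 and 1.74 in mutants.

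Egf, the founding ligand of the family, stayed low throughout. It was at 0.203, 0.196 and 0.364 FPKM in mesenchymal controls and at 0.181, 0.376, 0 and 0.954 in mesenchymal mutants. It was at 0.630, 0.960 and 1.23 FPKM in non-mesenchymal H19DMD controls, at 0.851, 0.416, 1.09 and 1.13 in their mutants, at 0.868, 0.878, 0.809 and 0.941 in Igf2 controls and at 0.372, 0.604 and 1.71 in Igf2 mutants. Without the filter on low values the fractions differed by -0.62 in controls (limma adjusted p = 0.0853), and the mesenchymal controls lay below all non-mesenchymal ones. Ereg, which encodes epiregulin, was listed at 0 in 4 of the 7 mesenchymal and 11 of the 14 non-mesenchymal libraries. Its highest value was 0.30 FPKM, and unfiltered its difference in controls was 0.08 (limma adjusted p = 0.752).

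Nrg1, the ligand of ERBB3, was the member that differed in the other direction from the EGFR ligands. It was at 1.60, 2.58 and 2.00 FPKM in mesenchymal controls and 1.08, 2.50, 1.53 and 1.35 in mesenchymal mutants. In non-mesenchymal cells it was at 0.464, 0.406 and 0.270 FPKM in H19DMD controls and 0.661, 0.521, 0.205 and 0.767 in mutants. Within that model the ranges of the fractions did not overlap. Nrg1 lay above Tgfa in 6 of 7 mesenchymal and in none of 14 non-mesenchymal libraries. The difference in controls was 1.14 ± 0.28 (limma adjusted p = 0.0356), a 5.42-fold higher mean. It missed the threshold in each of the 5 fits without 1 library that gave a value (mesenchymal controls 1 and 3, and each of the 3 non-mesenchymal controls; adjusted p = 0.0581 to 0.0888), and without mesenchymal control 2 Nrg1 fell below the filter. In the Igf2 model it was at 2.96, 0, 0.150 and 0.243 FPKM in controls and at 1.32, 0.224 and 0.349 in mutants, so control 1 stood apart, above every mesenchymal value of the H19DMD model, and mutant 1 lay among those values.

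**Figure D1:**
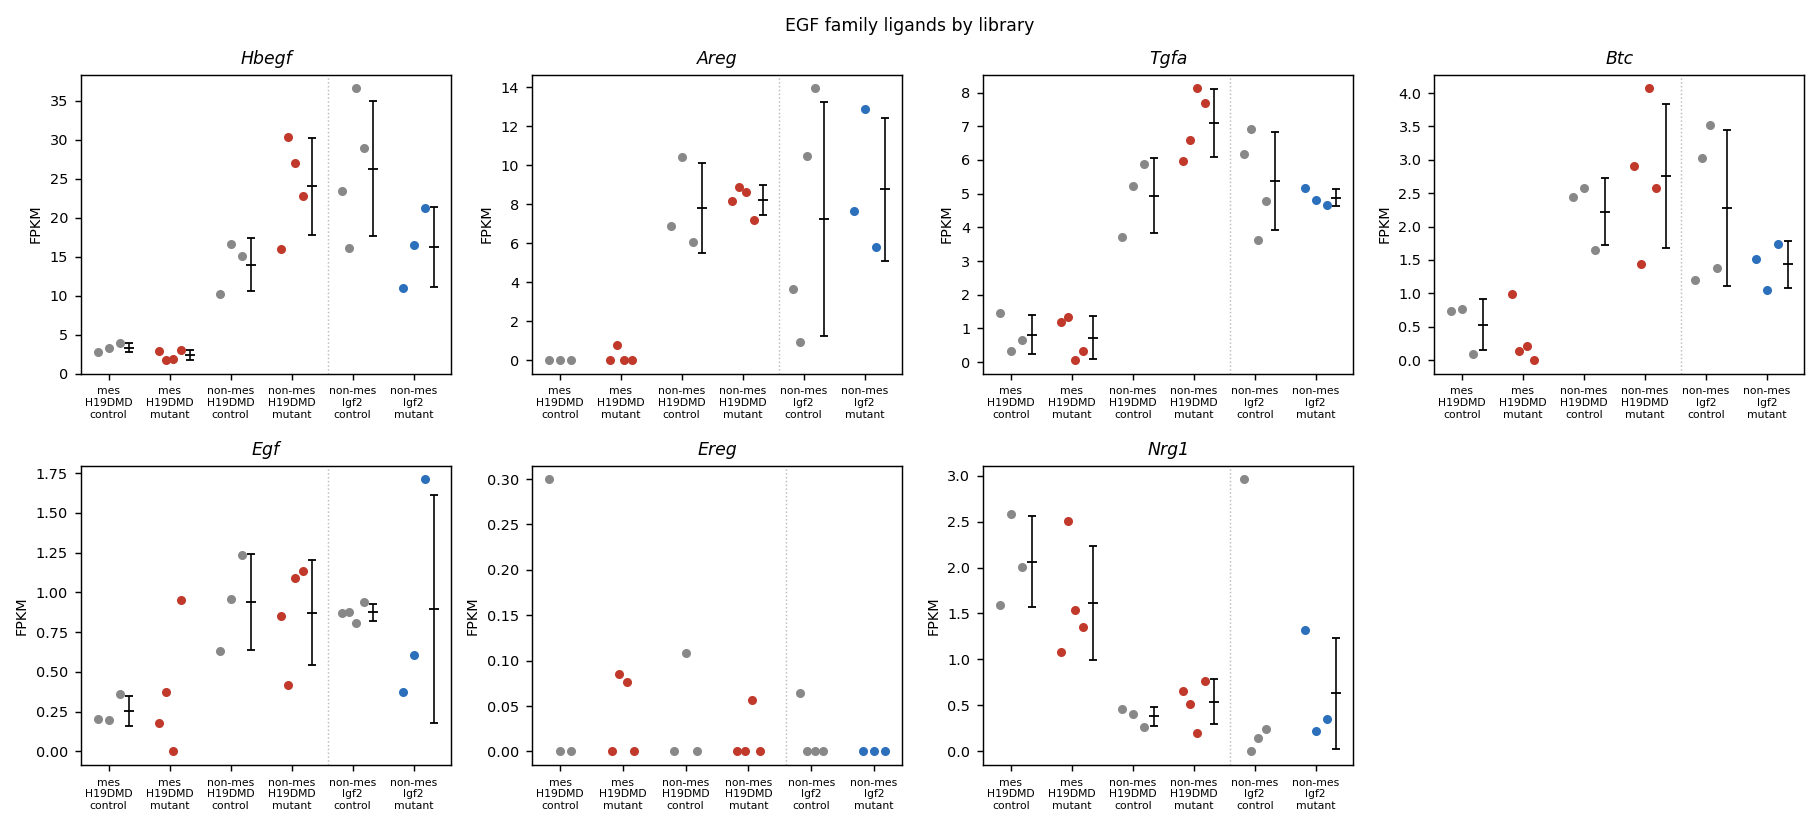
FPKM of the 7 ligands (vertical axes, linear, a separate scale for each panel) in each library, by group (mes, mesenchymal; non-mes, non-mesenchymal), with the mean and SD of each group beside its points where no library is listed at 0. The dotted line parts the 2 tables. Hbegf, Areg, Tgfa and Btc sit higher in the non-mesenchymal groups of the H19DMD model and Nrg1 in the mesenchymal ones, and Hbegf reaches 36.6 FPKM while Ereg stays at or below 0.30.

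The receptors Egfr and Erbb3 differed between fractions in opposite directions. Egfr was at 25.5, 27.3 and 26.4 FPKM in mesenchymal controls and at 22.6, 19.8, 21.9 and 18.6 in mesenchymal mutants. In non-mesenchymal cells it was at 2.43, 1.27 and 1.46 FPKM in H19DMD controls and at 10.8, 2.85, 2.63 and 4.95 in mutants. The lowest mesenchymal library held more Egfr than the highest non-mesenchymal one, mutant 1. In controls the difference was 3.35 ± 0.22 (limma adjusted p = 0.000294), and it lay between 3.24 and 3.53 when any 1 of the 6 libraries was left out. In the Igf2 model, non-mesenchymal Egfr was at 1.14, 1.80, 1.98 and 1.99 FPKM in controls and at 1.11, 5.85 and 1.47 in mutants, with mutant 2 apart from the others.

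Erbb3 had the opposite distribution. It was at 1.04, 0.823 and 0.172 FPKM in mesenchymal controls and at 0.484, 0.0758, 0.0807 and 0 in mesenchymal mutants. In non-mesenchymal cells it was at 8.37, 13.4 and 9.08 FPKM in H19DMD controls and at 14.1, 17.8, 15.1 and 15.9 in mutants. No mesenchymal library reached the non-mesenchymal range, and the difference in controls was -2.76 ± 0.32 (limma adjusted p = 0.00200). The Igf2 model, with 15.5, 16.5, 15.1 and 19.4 FPKM in controls and 16.9, 10.6 and 15.6 in mutants, lay within or just above the range of the H19DMD libraries. ERBB3 is also a receptor of Schwann cells. Of the 8 Schwann and neural crest markers, Sox10, Foxd3 and Cdh19 were listed at 0 in all 7 mesenchymal libraries, and Sox10 was at 1.37 to 9.08 FPKM in the non-mesenchymal ones. The part of these cells, and of the acinar, endocrine and ductal cells named above, in the Erbb3 difference was not tested.

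Erbb2, the shared partner, overlapped between the fractions. It was at 8.90, 5.4 and 15.3 FPKM in mesenchymal controls, 7.16, 10.5, 5.15 and 14.8 in mesenchymal mutants, 4.69, 6.69 and 5.51 in non-mesenchymal H19DMD controls and 5.28, 8.37, 4.85 and 8.61 in their mutants. Its spread was wide within the mesenchymal groups, and the difference in controls was 0.62 ± 0.37 (95% interval -0.29 to 1.53, limma adjusted p = 0.30). In the Igf2 model it was at 9.11, 13.2, 6.56 and 9.89 FPKM in controls and at 16.3, 6.76 and 9.09 in mutants.

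**Figure D2:**
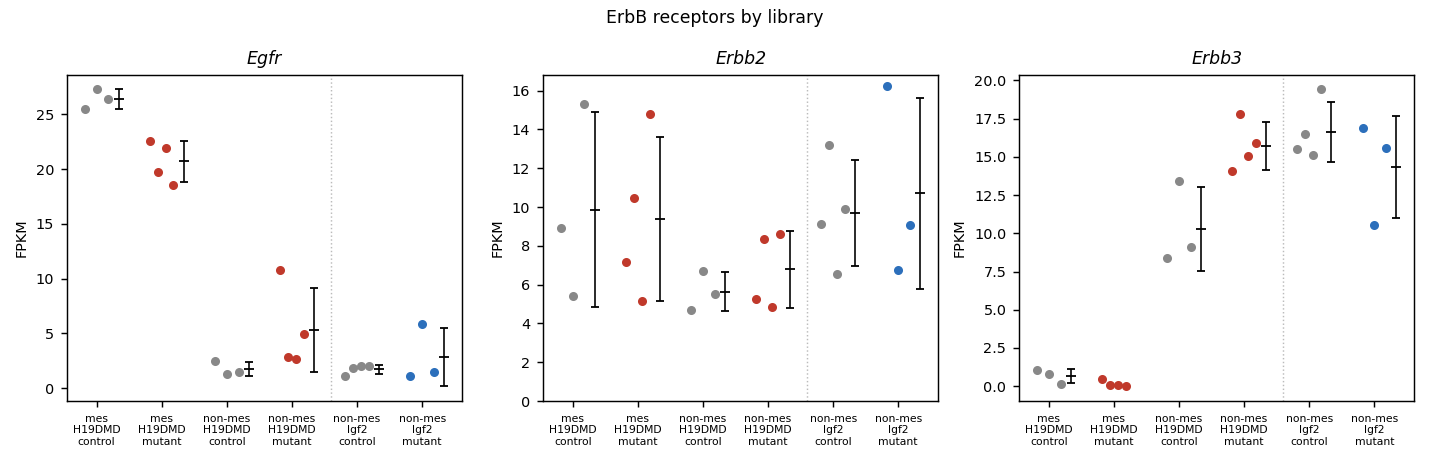
FPKM of Egfr, Erbb2 and Erbb3 (vertical axes, linear) in each library, by group (mes, mesenchymal; non-mes, non-mesenchymal), with the mean and SD of each group beside its points where no library is listed at 0. The dotted line parts the 2 tables. Egfr lies at 18.6 to 27.3 FPKM in mesenchymal and at 1.11 to 10.8 in non-mesenchymal libraries, Erbb3 at 0 to 1.04 and 8.37 to 19.4, and Erbb2 overlaps.

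The receptor make-up of the fractions differed accordingly. Egfr lay above Erbb3 in 7 of 7 mesenchymal and in 0 of 14 non-mesenchymal libraries, and Erbb3 lay above Erbb2 in 0 of 7 and 14 of 14. Of the summed FPKM of the 3 receptors, Egfr held 55.7 to 81.4% in mesenchymal and 3.24 to 35.9% in non-mesenchymal libraries, and Erbb3 held 0 to 2.94% and 45.6 to 66.8%. The summed FPKM of the 7 ligands was 3.77 to 7.14 in mesenchymal and 24.3 to 55.2 in non-mesenchymal libraries. Mesenchymal cells therefore combined a high level of the receptor Egfr with a low sum of ligand transcripts.

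In order of mean level, the mesenchymal controls ran Egfr, Erbb2, Hbegf, Nrg1, Tgfa, Erbb3, Btc, Egf, Ereg and Areg. The neighbours down to Tgfa did not overlap, and those from Tgfa on did. The mesenchymal mutants had the same first 5 genes, and Egfr, Erbb2 and Hbegf did not overlap there. The non-mesenchymal H19DMD controls ran Hbegf, Erbb3, Areg, Erbb2, Tgfa, Btc, Egfr, Egf, Nrg1 and Ereg. Each of the neighbours from Hbegf to Tgfa overlapped with the next, as did Btc with Egfr. Hbegf and Erbb3 were also the highest members, in that order, in the non-mesenchymal H19DMD mutants (24.0 ± 6.22 and 15.7 ± 1.59 FPKM, SD, n = 4), the Igf2 controls (26.3 ± 8.66 and 16.6 ± 1.95, n = 4) and the Igf2 mutants (16.3 ± 5.10 and 14.3 ± 3.34, n = 3), and their ranges overlapped in each of these groups.

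The fractions were compared again in the H19DMD mutants, which share no library with the controls. There 6 members passed, Egfr higher and Areg, Btc, Erbb3, Hbegf and Tgfa lower in mesenchymal cells, where 28.6% of 16767 genes did (13.5% higher and 15.1% lower), and the same 8 members were tested. Areg, Btc, Erbb3 and Tgfa again reached the filter through the non-mesenchymal libraries and Nrg1 through the mesenchymal ones, so this count too is a description. The ranges did not overlap for 7 of 10 members, 2 above and 5 below, against 31% of genes (14.4% above and 16.6% below). Egfr was 3.90-fold higher in mesenchymal cells (1.95 ± 0.36, limma adjusted p = 0.00467), with a mean of 5.31 ± 3.82 FPKM in the non-mesenchymal mutants (SD, n = 4). Erbb3 was lower by the largest difference of any member (-3.86 ± 0.20, adjusted p = 5.56e-06). Areg (-2.99 ± 0.25, adjusted p = 6.16e-05), Hbegf (-2.86 ± 0.24, adjusted p = 5.93e-05), Tgfa (-2.30 ± 0.30, adjusted p = 0.000736) and Btc (-1.50 ± 0.34, adjusted p = 0.0125) were lower too. For each of these 6 members, the exact two-sided permutation test gave 0.0286, the smallest value that 4 against 4 libraries allow. Nrg1, with a difference of 0.75 ± 0.29, missed the threshold (limma adjusted p = 0.0887), and it passed with a variance that does not depend on the level (0.0372) and over protein-coding genes alone (0.0490). Erbb2 differed by 0.36 ± 0.33 (adjusted p = 0.446), and, unfiltered, Egf by -0.47 (0.240) and Ereg by 0.04 (0.757).

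**Figure D3:**
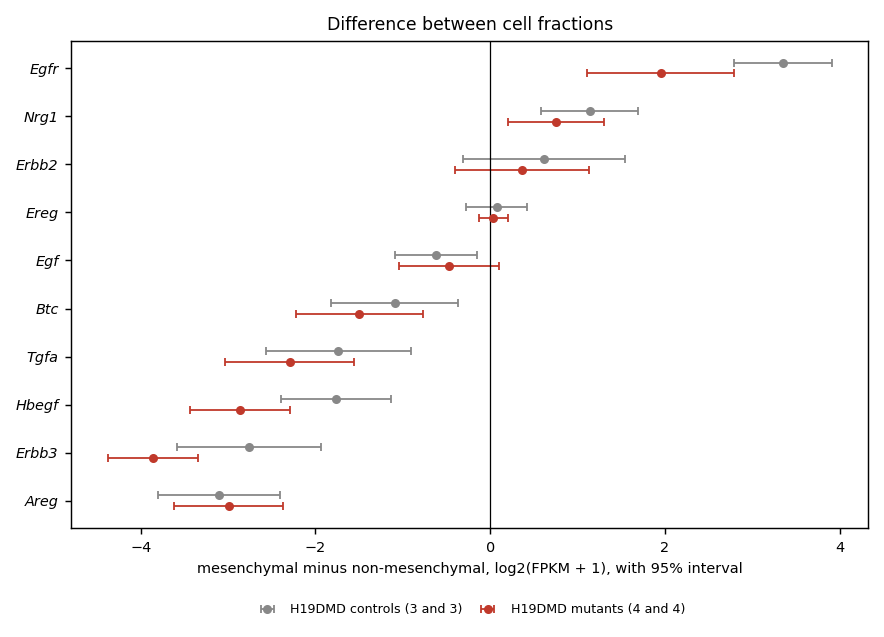
Difference in log2(FPKM + 1) of mesenchymal from non-mesenchymal cells (horizontal axis) for each member, from limma without the filter on low values so that all 10 appear, in H19DMD controls (grey, 3 and 3 libraries) and mutants (red, 4 and 4). Points are estimates and bars 95% intervals. Egfr lies at 3.35 and 1.95 and Areg at -3.10 and -2.99, on opposite sides of 0, and the intervals of Erbb2 and Ereg in both genotypes and of Egf in mutants cross 0.

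Deletion of H19DMD was compared next within each fraction, to ask whether altered expression at the Igf2 and H19 locus came with changes in these genes. In mesenchymal cells, no member passed (0 of 4 tested, against 0.0694% of 15856 genes), and none was under 0.05 by limma's unadjusted p either, where 4.76% of genes were, although without the filter 1 was (Egfr, 95% interval -0.67 to -0.0076). Egfr had the only ranges that did not overlap (1 of 10 members, below, against 5.39% of genes and 3.77% below). Each mutant lay below each control, with means of 20.7 ± 1.87 (SD, n = 4) and 26.4 ± 0.90 FPKM (n = 3), a ratio of 0.785. The log2 difference was -0.34 ± 0.15 with a 95% interval of -0.69 to 0.01 (limma adjusted p = 0.927), and the exact two-sided permutation test gave 0.0286, the smallest value 4 against 3 libraries allow. The other tested members were Hbegf, with -0.36 ± 0.26 (-0.97 to 0.25), Nrg1, with -0.24 ± 0.31 (-0.96 to 0.48), and Erbb2, with -0.05 ± 0.43 (-1.06 to 0.96). Their limma adjusted p lay between 0.927 and 0.993, and median-ratio scaling of the libraries turned the sign of Erbb2 (0.02). Erbb3, which fell below the filter, was at 0.679 ± 0.453 FPKM in controls (SD, n = 3), and 3 of the 4 mutants lay below all controls. Unfiltered, its difference was -0.51 ± 0.24 (limma adjusted p = 0.898). The 8 ductal markers summed to 39.7, 59.1 and 86.3 FPKM in these controls and to 24.2 to 39.0 in the mutants, without overlap. Of these, Epcam averaged 0.615 FPKM in controls and 0.641 in mutants, and Spp1 6.12 and 4.33. Other markers of the list therefore made up most of these sums. The 7 mesothelial markers summed to 135 to 303 and 90.7 to 147 FPKM, the 10 mesenchymal ones to 6061 to 7118 and 5533 to 6866 FPKM, and the leukocyte ones to 15.4 to 28.9 and 24.5 to 67.1 FPKM, all overlapping. The part of these cells in the members' values was not tested.

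In non-mesenchymal cells of the H19DMD model, again no member passed (0 of 7 tested, against 0.0677% of 16239 genes). Erbb3, Hbegf and Egfr were under 0.05 by limma's unadjusted p, all with higher values in mutants, where 5.35% of genes were under it and 2.96% with higher values. With median-ratio scaling or without the filter 2 members were under it, and without 1 library 0 to 2. Tgfa, Egfr and Erbb3 had ranges that did not overlap (3 of 10 members, all above, against 5.68% of genes and 3.47% above). Erbb3 was at 15.7 ± 1.59 FPKM in mutants (SD, n = 4) and 10.3 ± 2.72 in controls (n = 3), a ratio of 1.53. Its difference was 0.59 ± 0.20 (95% interval 0.12 to 1.06, limma p = 0.0205, adjusted p = 0.892), and the exact permutation test gave 0.0286. Hbegf had a ratio of 1.72 and a difference of 0.73 ± 0.27 (0.10 to 1.37, limma p = 0.0289, adjusted p = 0.892; exact permutation p = 0.0857), and mutant 1 lay within the control range. Egfr had a ratio of 3.08 and a difference of 1.06 ± 0.45 (0.01 to 2.11, limma p = 0.0479, adjusted p = 0.894; exact permutation p = 0.114). Mutant 1, at 10.8 FPKM, set much of that mean, and the difference ranged from 0.70 to 1.27 when any 1 library was left out. Tgfa had a ratio of 1.44 and a difference of 0.46 ± 0.21 (-0.03 to 0.94, limma adjusted p = 0.894; exact permutation p = 0.0571).

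Of the other members tested there, none passed, and each interval reached to both sides of 0. Erbb2 differed by 0.21 ± 0.25 (-0.39 to 0.80), Btc by 0.18 ± 0.31 (-0.54 to 0.91) and Areg by 0.10 ± 0.21 (-0.40 to 0.59), with limma adjusted p of 0.921, 0.946 and 0.962. Egf, Nrg1 and Ereg fell below the filter, and unfiltered they differed by -0.06, 0.14 and -0.03, with ratios of mean FPKM of 0.927, 1.42 and 0.392.

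Marker sums of other cell types in the non-mesenchymal H19DMD groups are set beside these values, untested, and their ranges overlapped. The 10 endocrine markers summed to 19330 to 29152 FPKM in controls and 10772 to 19967 in mutants, and those of red blood cells to 114 to 373 and 142 to 1508 FPKM. The 8 ductal markers summed to 993 to 1547 and 1105 to 1893 FPKM, and the 7 mesothelial ones to 154 to 267 and 244 to 443. Of the mesothelial list, Krt18 averaged 138 FPKM in controls and 208 in mutants, and Krt8 82.1 and 131. Krt18 and Krt8 thus made up most of the mesothelial sums in both groups. The 8 Schwann and neural crest markers summed to 27.9, 32.2 and 48.8 FPKM in controls and to 39.8 to 47.1 in mutants, so 2 of the 3 controls lay below all mutants. The 10 mesenchymal markers, with Nkx3-2 at 0 throughout, summed to 168 to 204 FPKM in controls and 161 to 283 in mutants. The part of these cell types in the members' values was not tested.

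Deletion of Igf2 was compared in non-mesenchymal cells only, and the deletion itself was not checked, since it lies in mesenchymal cells. No member passed (0 of 7 tested, against 0.0631% of 17441 genes), none was under 0.05 by limma's unadjusted p, where 5.28% of genes were, and no member had ranges without overlap (0 of 10, against 6.02% of genes). On the log2(FPKM + 1) scale Hbegf had the largest difference, with 16.3 ± 5.10 FPKM in mutants (SD, n = 3) and 26.3 ± 8.66 in controls (n = 4), a ratio of 0.619. Its log2 difference was -0.65 ± 0.33 (95% interval -1.42 to 0.12, limma adjusted p = 0.919; exact permutation p = 0.143). Areg differed by 0.58 ± 0.72 (-1.12 to 2.28), Btc by -0.37 ± 0.37 (-1.25 to 0.51), Egfr by 0.28 ± 0.46 (-0.80 to 1.37) and Erbb3 by -0.22 ± 0.21 (-0.71 to 0.27). The Areg difference ranged from 0.012 to 1.00 when single libraries were left out. Tgfa and Erbb2 differed by -0.09 ± 0.24 and 0.09 ± 0.34, and the signs of Egfr, Tgfa and Erbb2 turned when single libraries were left out. Egf, Nrg1 and Ereg, below the filter, differed by -0.05, 0.02 and -0.02 unfiltered. Acinar markers summed to 28606 to 41577 FPKM in the Igf2 controls and 84480 to 96326 in the mutants, and their part in these values was not tested.

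**Figure D4:**
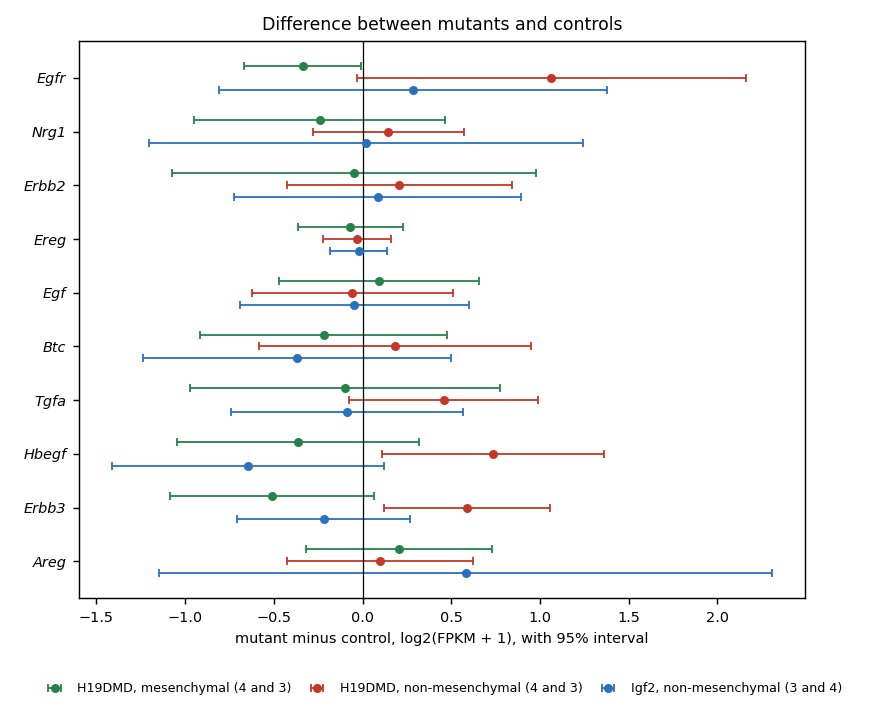
Difference in log2(FPKM + 1) of mutants from controls (horizontal axis) for each member, from limma without the filter on low values so that all 10 appear, in H19DMD mesenchymal cells (green), H19DMD non-mesenchymal cells (red) and Igf2 non-mesenchymal cells (blue), with numbers of mutant and control libraries in the legend. Points are estimates and bars 95% intervals. Egfr lies at -0.34, 1.06 and 0.28, and no member passed the threshold in any of the 3 comparisons.

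The mutant effects in the 2 fractions of the H19DMD model were then compared by an interaction term fitted to its 14 libraries. No member passed (0 of 8 tested, against 0.0117% of 17105 genes). Erbb3, Hbegf and Egfr were under 0.05 by limma's unadjusted p, all with a lower mutant effect in mesenchymal cells, where 6.35% of genes were under it and 4.55% in that direction. Their interaction terms were -1.10 ± 0.34 for Erbb3, -1.10 ± 0.35 for Hbegf and -1.40 ± 0.48 for Egfr. The limma p-values were 0.00681, 0.00807 and 0.0120 before adjustment, and the adjusted p was 0.755 for each. All genes tested had a median term of -0.11, which median-ratio scaling moved to -0.0048. This test uses the same libraries as the comparisons above and adds no independent evidence to them.

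The remaining ErbB genes were read from a list of 5, Erbb4, Nrg2, Nrg3, Nrg4 and Epgn. Erbb4, which encodes a receptor of neuregulins and of Btc and Hbegf, was at 3.27 ± 1.33 FPKM in non-mesenchymal controls (SD, n = 3) and 6.79 ± 5.07 in mutants (n = 4), and at most 0.0329 FPKM in any mesenchymal library. It was lower in mesenchymal cells in controls (-2.03 ± 0.33, limma adjusted p = 0.00728) and in mutants (-2.69 ± 0.48, adjusted p = 0.00381), as was Erbb3, and like Erbb3 it reached the filter through the non-mesenchymal libraries. It was 5.66 ± 1.05 FPKM in the Igf2 controls (n = 4) and 8.75 ± 5.33 in the Igf2 mutants (n = 3). Nrg4, a ligand of ERBB4, was at 2.21 to 7.72 FPKM over all 21 libraries and did not pass. Epgn, the neighbour of Ereg and Areg, reached at most 0.374 FPKM.

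Transcripts of proteins that shed or process ErbB ligands included several at higher levels in mesenchymal cells. In the H19DMD controls, 4 of 11 tested were higher and 0 lower, where 12.4% of all genes were higher and 10.3% lower (list median 0.56, against 0.08 over all genes). These were the metalloproteases Adam12 (74.5 ± 3.04 against 2.40 ± 1.90 FPKM, SD, n = 3 each, difference 4.61, limma adjusted p = 0.000655), Adam19 (40.1 ± 9.71 against 5.53 ± 1.00, 2.64, adjusted p = 0.000834) and Adam9 (10.9 ± 1.32 against 4.61 ± 1.71, 1.12, adjusted p = 0.0287) and the iRhom gene Rhbdf1 (15.4 ± 2.02 against 5.03 ± 2.66, 1.52, adjusted p = 0.0222). Adam17, the main sheddase of Hbegf, Areg and Tgfa, was at 17.9 ± 4.46 FPKM in mesenchymal and 15.1 ± 1.58 in non-mesenchymal controls, and Adam10, that of Egf and Btc, at 22.1 ± 9.82 and 19.4 ± 3.46. Neither passed.

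Among adaptors and the RAS-MAPK relay, 1 of 15 tested was higher in mesenchymal controls and 0 lower (median 0.01). It was Gab1, a docking protein below ErbB receptors (35.4 ± 0.76 against 18 ± 2.96 FPKM, difference 0.95, limma adjusted p = 0.0117). Among feedback inhibitors and genes of receptor degradation, 3 of 20 were higher and 3 lower, shares near those of all genes (12.4% and 10.3%; median 0.18). The higher ones were Spry4, an inhibitor of receptor tyrosine kinase signalling (19.1 ± 6.54 against 2.07 ± 0.24 FPKM, 2.65, adjusted p = 0.00191), Lrig3 (7.96 ± 2.00 against 0.424 ± 0.188, 2.64, adjusted p = 0.00127) and Lrig1, which promotes the degradation of ErbB receptors (12.7 ± 3.59 against 4.35 ± 1.11, 1.35, adjusted p = 0.0211). The lower ones were Cblc, a ubiquitin ligase of epithelia (-2.68, adjusted p = 0.00885; 0.370 ± 0.642 against 7.70 ± 3.75 FPKM), Dusp5 (-1.98, adjusted p = 0.00415; 3.52 ± 0.88 against 17.0 ± 5.10 FPKM) and Errfi1. Errfi1 encodes MIG6, which binds and inhibits EGFR, and stood at 49.4 ± 6.47 FPKM in mesenchymal and 139 ± 51.9 in non-mesenchymal controls (-1.40, adjusted p = 0.0317). Lrig3 reached the filter through the mesenchymal libraries and Cblc through the non-mesenchymal ones.

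Of 12 genes that respond to MAPK signalling, 1 was higher and 3 lower in mesenchymal controls (median -0.75), where 12.4% and 10.3% of all genes were. Emp1, a membrane protein gene, was at 150 ± 50.7 against 7.75 ± 1.88 FPKM (4.08, limma adjusted p = 0.000396). Ccnd1, which encodes cyclin D1, was at 24.2 ± 5.92 against 117 ± 18.9 FPKM (-2.24, adjusted p = 0.00177), Plaur at 3.57 ± 0.89 against 9.54 ± 3.45 (-1.17, adjusted p = 0.0405) and Etv1 at 14 ± 1.5 against 23.4 ± 2.84 (-0.69, adjusted p = 0.0396). In the mutants, the numbers higher and lower in mesenchymal cells were 0 and 1 for the other ErbB genes, 3 and 1 for ligand processing, 3 and 2 for adaptors and relay, 4 and 5 for feedback inhibitors and 2 and 5 for MAPK-responsive genes, where 13.5% of all genes were higher and 15.1% lower. Some of these, such as Lrig3 and Cblc, again reached the filter through 1 fraction, so the counts are a description. Of the genes named for the controls, Adam9 (limma adjusted p = 0.136), Rhbdf1 (0.141), Lrig1 (0.121) and Etv1 (0.947) did not pass in the mutants, and other genes of the lists passed there instead. No gene of these 5 lists passed in the mutant comparisons of either model or in the interaction.

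**Figure D5:**
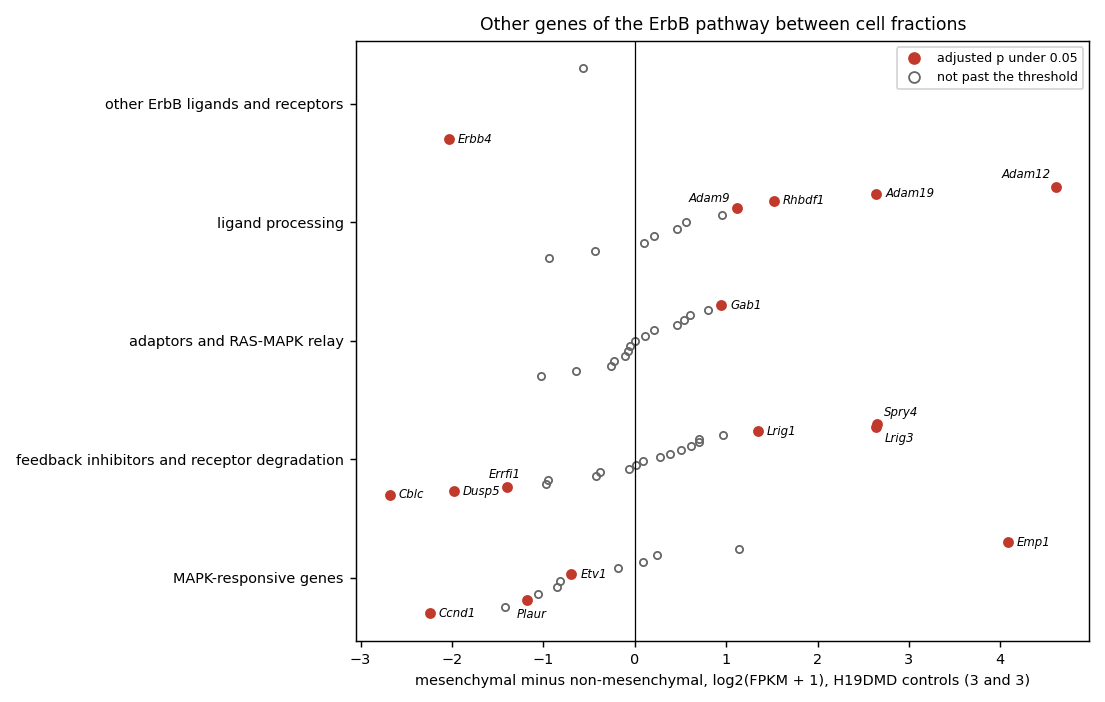
Difference in log2(FPKM + 1) of mesenchymal from non-mesenchymal H19DMD controls (horizontal axis, 3 and 3 libraries) for the tested genes of the 5 pathway lists, spread vertically within a list for legibility. Filled red points passed limma's adjusted threshold of 0.05 and are named. Adam12 (4.61), Emp1 (4.08), Spry4 (2.65), Lrig3 (2.64) and Adam19 (2.64) lie farthest to the right, and Cblc (-2.68), Ccnd1 (-2.24) and Erbb4 (-2.03) farthest to the left.

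Median-ratio scaling moved the median difference of all genes between fractions in controls from 0.08 to -0.04, and the same number of members, 6, passed with it. Across the 14 non-mesenchymal libraries, with group means removed, the named genes whose log2(FPKM + 1) varied most like Egfr included Sla, an adaptor gene of lymphocytes (Pearson's r = 0.906), and Traj30, a joining segment of the T cell receptor (0.905). For Erbb2 they were Ip6k2 (0.934), Hax1 (0.915) and Sema6a (0.912), and for Erbb3 Arhgap19 (0.906), Ccdc123 (0.891) and Apol7d (0.871). These are the extremes of 9160 or 9161 genes over libraries that differ in depth and in cell mixture, and are given as a description.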

How the data were processed

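RNA from sorted cells was amplified and sequenced as single 50-bp reads, per the labels' protocols. The authors deposited 1 table of FPKM values per model, a unit given per the file headers. TopHat2 2.0.8, Cufflinks 2.2.1 and GRCm38 are named per the submitters' processing notes, with no role or order; the annotation and the use of strand are not given in the sources used here. Of the 38283 gene IDs, 36425 were matched to GENCODE M21. In all, 8 columns for samples of the Igf2 model's mesenchymal cells hold no values.

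From these values, limma 3.58.1 in R 4.3.3 (lmFit, eBayes with trend, two-sided) was run on log2(FPKM + 1) for genes averaging 1 FPKM or more, with Benjamini-Hochberg adjustment, using only the libraries of each comparison; the fit was tested on simulated data. FPKM hold no read counts, so no counting interval can be given. Exact permutation tests were run over libraries. Replicate numbers were not used to pair the samples in the main fits.

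The members, the 5 pathway lists and the 10 marker lists were chosen with earlier results of these data known. Named were all members, Igf2 and H19, up to 5 list genes per direction past the threshold in the control fractions and up to 3 in each mutant comparison, and the 3 genes most like each receptor (mean of at least 5 FPKM). Not every gene this rule selects is reported here. Of the 2 highest markers per marker list, only Epcam, Spp1, Krt8 and Krt18 are printed. Sox10, Foxd3, Cdh19 and Nkx3-2 were singled out after their values were seen. Alternatives tried were another scaling, a pseudocount of 0.1, no filter, no variance trend, protein-coding genes only, a replicate block and leaving out each library.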

Additional observations from a re-analysis of the deposited data

Results flagged for a closer look

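In 30 groups of 4 libraries, 1 library's gap to its nearest neighbour was compared with the whole range of the group, and 5 groups had a library that stood apart by Dixon's criterion, which chance gives in about 1 of 20 groups of continuous values. In 3 of the 5 the other libraries were all listed at 0, so that any value above 0 meets the criterion and this rate does not apply. Areg was at 0.769 FPKM in mesenchymal H19DMD mutant 2 and listed at 0 in the other 3 mutants. Erbb3 was at 0.484 FPKM in mesenchymal H19DMD mutant 1, above the other 3. Nrg1 was at 2.96 FPKM in non-mesenchymal Igf2 control 1. Ereg was at 0.0646 FPKM in a single non-mesenchymal Igf2 control and at 0.0566 FPKM in a single non-mesenchymal H19DMD mutant, and was listed at 0 in the others of these groups.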

How the results depend on the processing

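Of 600 values of members under alternatives, 576 kept their direction and side of the threshold, 12 turned their sign, 8 lost a call and 4 gained one. No member was called in a mutant comparison or the interaction under any alternative run. Of 6 members called between fractions in controls, 4 to 5 were called when single libraries were left out, and in mutants 6 were in each such fit. Erbb2 in mesenchymal H19DMD cells became 0.017 with median-ratio scaling and ranged from -0.38 to 0.29 over fits without 1 library. Over such fits, non-mesenchymal Areg ranged from -0.045 to 0.30 in the H19DMD model, Igf2-model Erbb2 from -0.24 to 0.34, Egfr from -0.25 to 0.60 and Tgfa from -0.23 to 0.026, and the interaction of Areg from -0.10 to 0.25 and of Erbb2 from -0.59 to 0.089. Counts over all genes moved more. Of 11 genes called in each mutant comparison, protein-coding genes alone left 0 (mesenchymal H19DMD), 1 (non-mesenchymal H19DMD) and 0 (Igf2), with 659, 790 and 771 under 0.05 by limma's unadjusted p. Leaving out 1 library gave 13 to 27, 14 to 34 and 14 to 37 genes, and 2813 to 3256 and 3892 to 4638 between fractions in controls and mutants. The interaction, with 2 genes called, had 0 over protein-coding genes (933 under 0.05 by limma's unadjusted p), 6 with a pseudocount of 0.1, 6 without the filter and 2 to 9 without 1 library. The cause of these shifts was not tested.

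The replicate numbers are shared between groups. For same-numbered libraries, r was -0.0506 to 0.0329 between mutants and controls and 0.00738 to 0.0674 between fractions. The values between fractions were small but all positive, and whether those libraries came from the same animal was not tested. With the replicate number as a block, 7, 5 and 2 genes were called in the mesenchymal H19DMD, non-mesenchymal H19DMD and Igf2 comparisons. Between fractions the block left 4 members called in controls, where Tgfa (adjusted p = 0.0599) and Nrg1 (adjusted p = 0.110) missed the threshold, and 6 in mutants.

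With 3 or 4 libraries per group, 50-bp reads and unknown depth, small differences of low members such as Ereg, Egf and Nrg1 could not be resolved.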
